A study of Homo sapiens with 18 samples.

Results

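The G1 cyclins and the CDK inhibitors that face them were followed as 10 genes, the cyclins *CCND1*, *CCND2*, *CCND3*, *CCNE1* and *CCNE2* and the inhibitors *CDKN1B*, *CDKN1C*, *CDKN2B*, *CDKN2C* and *CDKN2D*. They were chosen by name, as all non-control spots of the array that carry 1 of these gene names, and make up 10 of the 36204 gene names measured (30 spots of 12 probes). The cells were HT29, a human colorectal adenocarcinoma line, and HTOXAR3, a subline derived from HT29 by continuous exposure to rising doses of oxaliplatin (OXA), a platinum drug that forms DNA adducts. HTOXAR3 is thus a single subline of a single parental line. Each line was profiled untreated, after 24 h of OXA (10 µM for HT29 and 30 µM for HTOXAR3) and after 24 h of OXA at the same dose with 10 µM Curcumin, a plant polyphenol used here to inhibit NF-κB. There were 3 arrays in each of the 6 groups, labelled as biological replicates, and every comparison of the lines after treatment is also a comparison of 2 OXA doses. The sample labels call the cells without drug untreated, while the study's text describes them both as vehicle-treated and as without treatment. Whether these cells received the vehicle could not be settled here. No group received Curcumin without OXA, so the effect of Curcumin by itself cannot be read from these arrays.

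D-type cyclins bind CDK4 and CDK6 in G1 and start the phosphorylation of the retinoblastoma protein, and E-type cyclins bind CDK2 and complete it, which frees E2F factors to switch on the genes of S phase. The CIP/KIP inhibitors, among them p27 (*CDKN1B*) and p57 (*CDKN1C*), bind cyclin-CDK complexes, whereas the INK4 inhibitors p15 (*CDKN2B*), p18 (*CDKN2C*) and p19 (*CDKN2D*) bind CDK4 and CDK6 themselves. Much of the control of cyclins and of p27 lies in protein turnover, which an array of transcripts does not see.

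Among the 10 genes, the largest differences between the lines were those of 2 inhibitors. *CDKN2C* was higher and *CDKN1C* lower in HTOXAR3 than in HT29 under each of the 3 treatments, while *CCND3* and *CCNE1* were higher. *CDKN2D* fell with OXA in both lines, *CDKN2B* rose with OXA plus Curcumin in both lines, and *CCNE2* fell when Curcumin was added to OXA in HT29. The levels below are log2 intensities of the background-corrected and quantile-normalised signal, so that a difference of 1 is a change of 2-fold, and levels are compared between groups for 1 probe only, never between probes. An intensity is a level in the RNA of the whole culture, in which fewer expressing cells and less RNA per cell cannot be told apart.

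In a fit of all gene names by limma, a difference was called at a Benjamini-Yekutieli (BY) adjusted p below 0.05 with a fold change above 1.2. The p-values rest on a spread between replicate arrays that was pooled for each gene over the 6 groups and moderated over all gene names. They do not measure the spread of the 3 arrays of each compared group alone. *CCND2* was well above background on 0 of the 18 arrays and the other 9 genes on all 18. The share of spots well above background ranged from 52.4%, on replicate 2 of untreated HTOXAR3, to 63.6%. Of 13 markers of colorectal epithelium, 9 were well above background on all 18 arrays, against 0 of 6 fibroblast markers, 2 of 4 of endothelium and 3 of 5 of blood. The arrays lay on 3 slides, and slide 1 held only replicate 1 of untreated HT29 and replicate 1 of HT29 after OXA. The lines and the treatments were therefore not balanced over the slides. For the 31 differences called between 2 groups, all 66 differences taken within 1 slide had the sign of the whole comparison. In each of these 31 the arrays of the 2 groups did not overlap. The sign within a slide was thus fixed in advance and says nothing about an effect of the slides. With slide as a block, 1 of the 31 calls was lost.

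Of the 10 genes, 6 had windows in the RefSeq promoter table, 10 windows in all. The 250 bases before the start are shown for the 4 genes with a single start in the table, 3 that were called in some comparison and *CDKN1B*, which was called in none of the comparisons between treatments or between lines at matched treatment. Capitals mark GC boxes (GGGCGG) and CCAAT boxes (CCAAT), searched on both strands.
CCNE1 promoter, GRCh38.p14 chr19:29811741-29811990, plus strand: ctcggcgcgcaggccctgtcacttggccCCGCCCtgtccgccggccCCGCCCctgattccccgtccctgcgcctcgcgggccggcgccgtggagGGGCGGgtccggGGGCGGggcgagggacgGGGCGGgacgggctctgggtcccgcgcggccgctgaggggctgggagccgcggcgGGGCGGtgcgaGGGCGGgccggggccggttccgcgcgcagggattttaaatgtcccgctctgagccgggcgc
CDKN2B promoter, GRCh38.p14 chr9:22009306-22009555, minus strand: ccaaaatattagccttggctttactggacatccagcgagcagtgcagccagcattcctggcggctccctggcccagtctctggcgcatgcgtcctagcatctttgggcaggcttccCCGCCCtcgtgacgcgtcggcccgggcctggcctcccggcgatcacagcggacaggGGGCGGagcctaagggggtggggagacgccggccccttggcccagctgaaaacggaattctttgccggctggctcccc
CDKN2D promoter, GRCh38.p14 chr19:10568980-10569229, minus strand: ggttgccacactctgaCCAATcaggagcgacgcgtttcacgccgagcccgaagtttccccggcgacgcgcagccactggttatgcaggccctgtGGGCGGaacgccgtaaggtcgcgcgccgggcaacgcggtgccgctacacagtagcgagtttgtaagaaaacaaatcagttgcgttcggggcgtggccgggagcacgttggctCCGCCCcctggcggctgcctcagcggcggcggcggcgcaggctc
CDKN1B promoter, GRCh38.p14 chr12:12717118-12717367, plus strand: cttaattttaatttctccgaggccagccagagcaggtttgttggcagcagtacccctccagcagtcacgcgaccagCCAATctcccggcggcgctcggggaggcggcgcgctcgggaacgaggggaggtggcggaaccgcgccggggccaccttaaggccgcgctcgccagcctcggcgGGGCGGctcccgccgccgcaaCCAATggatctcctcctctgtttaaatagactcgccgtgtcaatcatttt
The window of *CCNE1* held 7 GC boxes, those of *CDKN2B* and *CDKN2D* 2 each and that of *CDKN1B* 1, and a GC box was found in 42.5% of the 34943 distinct windows of the table. CCAAT boxes stood at 2 places before *CDKN1B* and at 1 place before *CDKN2D*, against 32.0% of all windows with at least 1. The E2F letters TTTCCCGC, TTTCGCGC, TTTGCCGC and TTTGGCGC were found in none of the 10 windows of these genes and in 2.77% of all windows. No 2 of these motifs overlapped in the windows of the 10 genes, and a match describes the letters only.

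*CCND1*, the cyclin D1 gene and a known target of NF-κB and Wnt signalling, rose with OXA in both lines and was lower with OXA plus Curcumin than with OXA alone in HT29. In HT29 its log2 intensity (probe at chr11:69468233-69468292 on GRCh37, 10 spots) was 10.16, 10.21 and 10.19 untreated, 10.48, 10.60 and 10.54 after OXA, and 10.28, 10.19 and 10.09 after OXA plus Curcumin. The HTOXAR3 values were 10.45, 10.45 and 10.43 untreated, 10.76, 10.75 and 10.67 after OXA, and 10.71, 10.70 and 10.71 after OXA plus Curcumin. The OXA arrays lay above the untreated arrays in each line, and the OXA plus Curcumin arrays overlapped the untreated ones in HT29 but lay above them in HTOXAR3. The rise with OXA was 0.35 ± 0.06 (log2 difference ± SE) in HT29 (1.28-fold, adjusted p = 0.00265) and 0.28 ± 0.06 in HTOXAR3 (1.22-fold, adjusted p = 0.0257). The latter call was lost when any 1 of 5 of the 6 arrays was left out, with a value of 0.27 to 0.31 over the 6 fits. Adding Curcumin to OXA lowered *CCND1* in HT29 by 0.36 ± 0.06 on the log2 scale (adjusted p = 0.00829), and in HTOXAR3 the difference was -0.02 ± 0.06 (adjusted p = 1). The difference between these effects of Curcumin, 0.34 ± 0.08, was not called (adjusted p = 0.798). Without replicate 2 of HT29 after OXA, the fall in HT29 was not called either (-0.32, adjusted p = 0.0586).

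Between the lines, *CCND1* was higher in HTOXAR3 by 0.52 ± 0.06 after OXA plus Curcumin (1.44-fold, adjusted p = 8.79e-05), where the 3 arrays of each line lay 0.42 apart at the nearest. Untreated, the difference of 0.26 ± 0.06 passed the p threshold (adjusted p = 0.0446) but lay under the fold minimum, as did the 0.26 ± 0.06 of OXA plus Curcumin against untreated in HTOXAR3 (adjusted p = 0.0273). With slide as a block, the latter was called (0.28, adjusted p = 0.0135). Placed in order, the group means of *CCND1* ran from HTOXAR3 after OXA down to HT29 after OXA plus Curcumin over 0.54, and no neighbours in that order were called different.

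*CCND3*, the cyclin D3 gene, was the D-type cyclin with the widest range, 0.93 between its highest and lowest group mean (1.91-fold). In HT29 its log2 intensity (chr6:41903193-41903252) was 11.01, 10.98 and 10.98 untreated, 11.41, 11.46 and 11.38 after OXA, and 11.39, 11.37 and 11.42 after OXA plus Curcumin. For HTOXAR3 the corresponding values were 11.58, 11.70 and 11.65 untreated, 11.85, 11.93 and 11.83 after OXA, and 11.89, 11.91 and 11.96 after OXA plus Curcumin. The untreated arrays were the lowest of each line, every HTOXAR3 array lay above every HT29 array, and in both lines OXA and OXA plus Curcumin overlapped. Untreated HTOXAR3 exceeded untreated HT29 by 0.66 ± 0.05 (1.58-fold, adjusted p = 4.67e-06). OXA raised *CCND3* by 0.43 ± 0.05 in HT29 (1.34-fold, adjusted p = 0.000248). In HTOXAR3 the difference with OXA was 0.22 ± 0.05, which was not called (adjusted p = 0.0753), although it was called with each of the 75th-percentile scalings (0.29, adjusted p = 0.0165 and 0.0133). OXA plus Curcumin raised it against untreated by 0.41 ± 0.05 in HT29 (adjusted p = 0.000304) and by 0.28 ± 0.05 in HTOXAR3 (adjusted p = 0.0092). That last call was lost without replicate 1 of untreated HTOXAR3 (0.25, adjusted p = 0.0677) or without replicate 3 of HTOXAR3 after OXA plus Curcumin (0.26, adjusted p = 0.0634).

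*CCND2*, the cyclin D2 gene, was not well above background on any array. Its group means lay between 3.32 ± 0.27 and 3.76 ± 0.38 (SD, n = 3) and no difference was called.

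**Figure D1:**
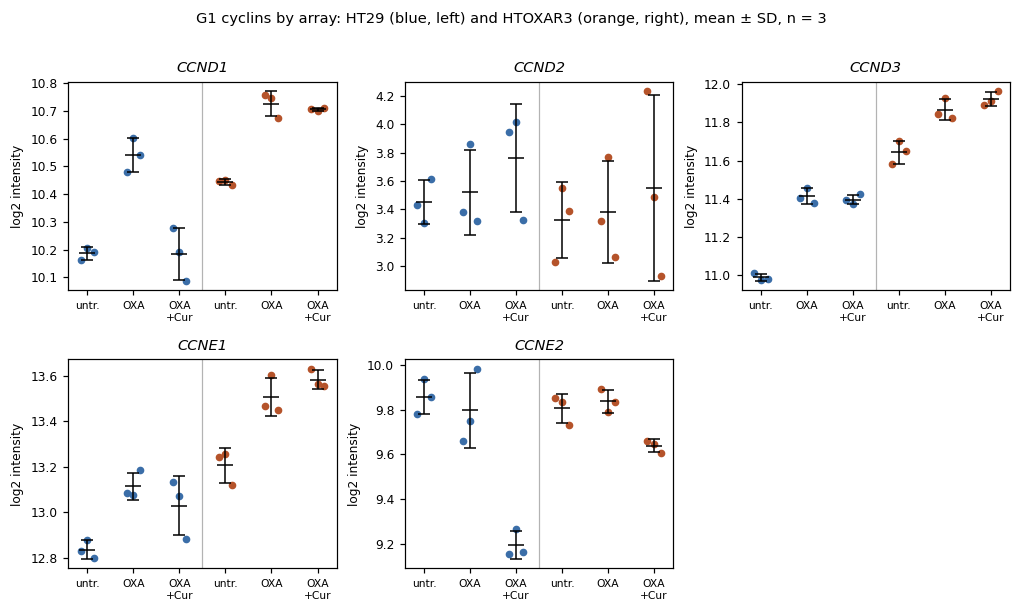
Log2 intensity of the 5 G1 cyclin genes on each of the 18 arrays (points), with the mean and SD of each group of 3 (bars), HT29 in blue and HTOXAR3 in orange. Each panel has its own log2 scale; *CCND3* lies higher on every HTOXAR3 array than on any HT29 array, *CCNE2* is lowest in HT29 after OXA plus Curcumin, and *CCND2* is not well above background.

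*CCNE1*, the gene of cyclin E1 and a classical E2F target, was higher in HTOXAR3 than in HT29 under each treatment. Its log2 intensity in HT29 (chr19:30315106-30315165) was 12.83, 12.88 and 12.80 untreated, 13.08, 13.08 and 13.18 after OXA, and 13.13, 13.07 and 12.88 after OXA plus Curcumin. The arrays of HTOXAR3 read 13.24, 13.26 and 13.12 untreated, 13.47, 13.60 and 13.45 after OXA, and 13.63, 13.56 and 13.56 after OXA plus Curcumin. Treated arrays lay above untreated arrays in both lines, by 0.0026 at the nearest for OXA plus Curcumin in HT29. The difference between the lines was 0.37 ± 0.07 untreated (1.29-fold, adjusted p = 0.0192), 0.39 ± 0.07 after OXA (adjusted p = 0.0106) and 0.55 ± 0.07 after OXA plus Curcumin (1.47-fold, adjusted p = 0.000529). The untreated difference was the call lost with slide as a block (0.35, adjusted p = 0.0545), although it was 0.32 and 0.37 within the 2 slides that held both groups, and leaving out any 1 of 5 of its 6 arrays also ended it (0.35 to 0.41 over the 6 fits). OXA plus Curcumin raised *CCNE1* in HTOXAR3 by 0.38 ± 0.07 (1.30-fold, adjusted p = 0.0118), a call lost without replicate 3 of untreated HTOXAR3 (0.33, adjusted p = 0.0797) or without replicate 1 of HTOXAR3 after OXA plus Curcumin (0.35, adjusted p = 0.0699). The difference between the lines after OXA was not called without replicate 1 or replicate 2 of HT29 after OXA (0.38, adjusted p = 0.0505, and 0.37, adjusted p = 0.0645) or without replicate 2 of HTOXAR3 after OXA (0.34, adjusted p = 0.0732). With OXA alone the differences were 0.28 ± 0.07 in HT29 and 0.30 ± 0.07 in HTOXAR3 and were not called (adjusted p = 0.108 and 0.0924). Both were called with an offset of 50, without the dim probes, or with Benjamini-Hochberg (BH) adjustment.

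*CCNE2*, the gene of cyclin E2, was lowest in a single group. In HT29 its log2 intensity was 9.78, 9.94 and 9.86 untreated, 9.66, 9.75 and 9.98 after OXA, and 9.15, 9.27 and 9.16 after OXA plus Curcumin. HTOXAR3 arrays gave 9.85, 9.84 and 9.73 untreated, 9.89, 9.79 and 9.83 after OXA, and 9.66, 9.65 and 9.61 after OXA plus Curcumin. The HT29 arrays with OXA plus Curcumin lay below all other arrays, and the other 5 groups were not separated by a call from their neighbours in the order of means. Adding Curcumin to OXA lowered *CCNE2* in HT29 by 0.60 ± 0.08 on the log2 scale (1.52-fold, adjusted p = 0.00186), and OXA plus Curcumin lowered it against untreated by 0.66 ± 0.08 (adjusted p = 0.000153). The same 2 differences in HTOXAR3 were -0.20 ± 0.08 and -0.17 ± 0.08 and were not called (adjusted p = 1 for both). The test of the difference between the lines gave 0.49 ± 0.11 for the response to OXA plus Curcumin, which was not called by BY (adjusted p = 0.279) and passed by BH (adjusted p = 0.0252). A second, dimmer *CCNE2* probe fell likewise in HT29, by 0.49 ± 0.09 with the addition of Curcumin and by 0.57 ± 0.09 against untreated (adjusted p over all probes 0.0304 and 0.00254). The 2 probes disagreed between the lines after OXA, where the second was 0.42 ± 0.09 higher in HTOXAR3 (adjusted p = 0.0408) and the first 0.04 ± 0.08 (adjusted p = 1).

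*CDKN1B*, the gene of p27, moved least of the 9 genes above background. Its log2 intensity (chr12:12874940-12874999, 10 spots) ran from 10.10 to 10.15 in untreated HT29, from 10.00 to 10.11 after OXA and from 10.10 to 10.14 after OXA plus Curcumin, and from 10.31 to 10.38, 10.18 to 10.31 and 10.22 to 10.23 in the same groups of HTOXAR3. Every HTOXAR3 array lay above every HT29 array, within a range of means of 0.30. The untreated lines differed by 0.23 ± 0.05, which passed the p threshold (adjusted p = 0.0495) and not the fold minimum (1.17-fold). Its second probe (chr12:12871119-12871178) gave 0.19 ± 0.11 for the same difference (adjusted p = 1).

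*CDKN1C*, the gene of p57, an imprinted inhibitor linked to cell cycle exit, separated the lines and responded to treatment in HT29. In HT29 its log2 intensity (chr11:2904903-2904962) was 10.88, 10.72 and 10.74 untreated, 11.25, 11.32 and 11.48 after OXA, and 11.35, 11.61 and 11.83 after OXA plus Curcumin. In the resistant subline the values were 10.14, 9.89 and 10.06 untreated, 10.11, 10.11 and 10.26 after OXA, and 10.05, 9.97 and 10.24 after OXA plus Curcumin. All HTOXAR3 arrays lay below all HT29 arrays and the 3 HTOXAR3 groups overlapped, while in HT29 both treated groups lay above the untreated one. HTOXAR3 was lower by 1.68-fold untreated (-0.75 ± 0.12, adjusted p = 0.00299), 2.28-fold after OXA (-1.19 ± 0.12, adjusted p = 3.28e-05) and 2.85-fold after OXA plus Curcumin (-1.51 ± 0.12, adjusted p = 3.31e-06). In HT29 it rose by 0.57 ± 0.12 with OXA (1.49-fold, adjusted p = 0.0203) and by 0.82 ± 0.12 with OXA plus Curcumin (1.76-fold, adjusted p = 0.000858). In HTOXAR3 the differences were 0.13 ± 0.12 and 0.06 ± 0.12 (adjusted p = 1 for both). The test of the difference between the lines gave -0.44 ± 0.16 for OXA (adjusted p = 1) and -0.76 ± 0.16 for OXA plus Curcumin, which was not called by BY (adjusted p = 0.233) and passed by BH (adjusted p = 0.0211). The rise with OXA alone in HT29 was not called when replicate 2 or 3 of either group was left out (0.51 to 0.62 over the 6 fits, adjusted p = 0.0701 to 0.122 in those 4).

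*CDKN2B*, the gene of p15 and a known TGF-β target, rose with OXA plus Curcumin in both lines. On the HT29 arrays its log2 intensity (chr9:22008979-22009038) was 5.90, 5.58 and 5.78 untreated, 5.94, 6.30 and 6.06 after OXA, and 6.95, 6.57 and 6.34 after OXA plus Curcumin. HTOXAR3 had 5.87, 5.63 and 5.79 untreated, 6.46, 6.31 and 6.15 after OXA, and 6.70, 6.57 and 6.85 after OXA plus Curcumin. In each line the 3 treatments stood in the same order without overlap, by as little as 0.04 between single arrays in HT29. The rise against untreated was 0.87 ± 0.15 in HT29 (1.82-fold, adjusted p = 0.00455) and 0.94 ± 0.15 in HTOXAR3 (1.92-fold, adjusted p = 0.00235). With an offset of 50 in the background correction the rise was smaller and still called, 0.52 in HT29 and 0.57 in HTOXAR3. The steps from untreated to OXA (0.35 ± 0.15 and 0.54 ± 0.15) and from OXA to OXA plus Curcumin (0.52 ± 0.15 and 0.40 ± 0.15) were each not called, and of these the OXA step of HTOXAR3 and the Curcumin step of HT29 passed by BH (adjusted p = 0.0191 and 0.035). The 2 lines overlapped in each treatment, and the untreated difference was 0.01 ± 0.15 (adjusted p = 1).

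*CDKN2C*, the gene of p18, gave the largest untreated difference between the lines among the 10 genes. In HT29 its log2 intensity (chr1:51439963-51440022) was 9.16, 9.13 and 9.31 untreated, 8.89, 9.07 and 9.16 after OXA, and 8.68, 8.90 and 8.82 after OXA plus Curcumin. The resistant subline gave 10.38, 10.42 and 10.44 untreated, 10.08, 10.13 and 10.35 after OXA, and 9.93, 10.02 and 9.97 after OXA plus Curcumin. Every HTOXAR3 array lay above every HT29 array, and in both lines the OXA plus Curcumin arrays lay below the untreated ones. HTOXAR3 exceeded HT29 by 1.22 ± 0.09 untreated (2.32-fold, adjusted p = 2.33e-06), by 1.15 ± 0.09 after OXA (2.22-fold, adjusted p = 3.49e-06) and by 1.17 ± 0.09 after OXA plus Curcumin (2.26-fold, adjusted p = 3.12e-06). OXA plus Curcumin lowered it against untreated by 0.40 ± 0.09 on the log2 scale in HT29 (1.32-fold, adjusted p = 0.0386) and by 0.44 ± 0.09 in HTOXAR3 (1.36-fold, adjusted p = 0.0192). Each of these 2 calls was lost when any 1 of 5 of its 6 arrays was left out, with values from -0.45 to -0.34 in HT29 and from -0.46 to -0.42 in HTOXAR3.

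*CDKN2D*, the gene of p19, fell with OXA in both lines, and the lines overlapped under each treatment. The log2 intensity in HT29 (chr19:10677226-10677285) was 12.42, 12.49 and 12.29 untreated, 11.94, 11.95 and 12.04 after OXA, and 12.25, 12.24 and 12.33 after OXA plus Curcumin. HTOXAR3 values of the gene were 12.34, 12.42 and 12.35 untreated, 11.92, 11.99 and 12.00 after OXA, and 12.19, 12.26 and 12.21 after OXA plus Curcumin. The OXA arrays were the lowest of each line and overlapped neither other treatment. The fall with OXA was 0.43 ± 0.06 on the log2 scale in HT29 (1.34-fold, adjusted p = 0.00108) and 0.40 ± 0.06 in HTOXAR3 (1.32-fold, adjusted p = 0.00315), and the test of their difference gave 0.02 ± 0.09 (adjusted p = 1). Against OXA alone, OXA plus Curcumin gave 0.30 ± 0.06 in HT29 and 0.25 ± 0.06 in HTOXAR3, neither called (adjusted p = 0.0524 and 0.117). The former was called with an offset of 16 or 50, without the dim probes, or by BH.

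**Figure D2:**
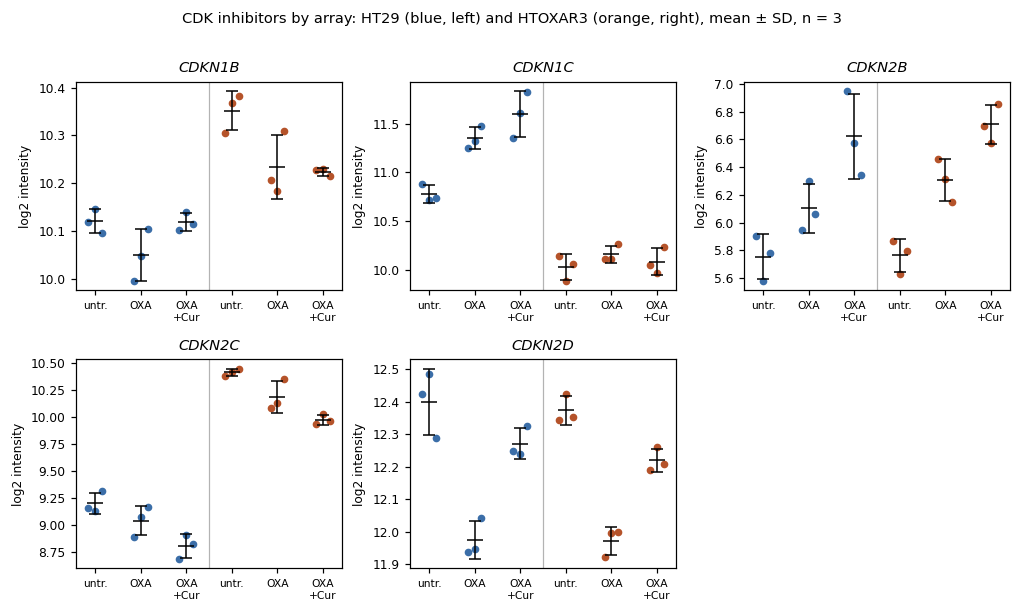
Log2 intensity of the 5 CDK inhibitor genes on each of the 18 arrays (points), with the mean and SD of each group of 3 (bars), HT29 in blue and HTOXAR3 in orange. Each panel has its own log2 scale; *CDKN2C* is higher and *CDKN1C* lower on every HTOXAR3 array than on any HT29 array, *CDKN2B* climbs with treatment in both lines, and *CDKN2D* dips after OXA in both.

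Counted by comparison, 31 of 90 differences between 2 groups were called. Untreated HTOXAR3 against untreated HT29 gave 4 of the 10 genes (*CCND3*, *CCNE1* and *CDKN2C* higher, *CDKN1C* lower), against 11.5% of all gene names called in that comparison (6.26% higher and 5.28% lower). The same 4 genes in the same directions were called between the lines after OXA, where 14.1% of all names were called (7.14% higher and 6.98% lower). After OXA plus Curcumin *CCND1* and *CCNE2* joined them, both higher, for 6 genes against 13.9% of all names (6.95% higher and 6.92% lower). The comparisons of the lines use separate arrays.

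OXA changed 4 of the 10 genes in HT29, with *CCND1*, *CCND3* and *CDKN1C* higher and *CDKN2D* lower, where 15.9% of all names were called (8.33% higher and 7.62% lower). In HTOXAR3 it changed 2, *CCND1* higher and *CDKN2D* lower, where 10.2% of all names were called (5.31% higher and 4.94% lower). OXA plus Curcumin against untreated changed 5 genes in HT29, where 18.6% of all names were called (9.56% higher and 9.02% lower), and 4 in HTOXAR3, where 17.5% were called (8.82% higher and 8.64% lower). *CCND3* and *CDKN2B* rose and *CDKN2C* fell in both lines, *CDKN1C* rose and *CCNE2* fell in HT29, and *CCNE1* rose in HTOXAR3. Adding Curcumin to OXA changed 2 genes in HT29, *CCND1* and *CCNE2*, both lower, where 5.53% of all names were called (3.14% higher and 2.39% lower). In HTOXAR3 the addition changed 0 of the 10 by limma with BY adjustment, with 4 at an unadjusted p below 0.05 and 0 by BH, where 8.83% of all names were called (4.43% higher and 4.41% lower). The comparisons within a line share their untreated or OXA arrays.

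**Figure D3:**
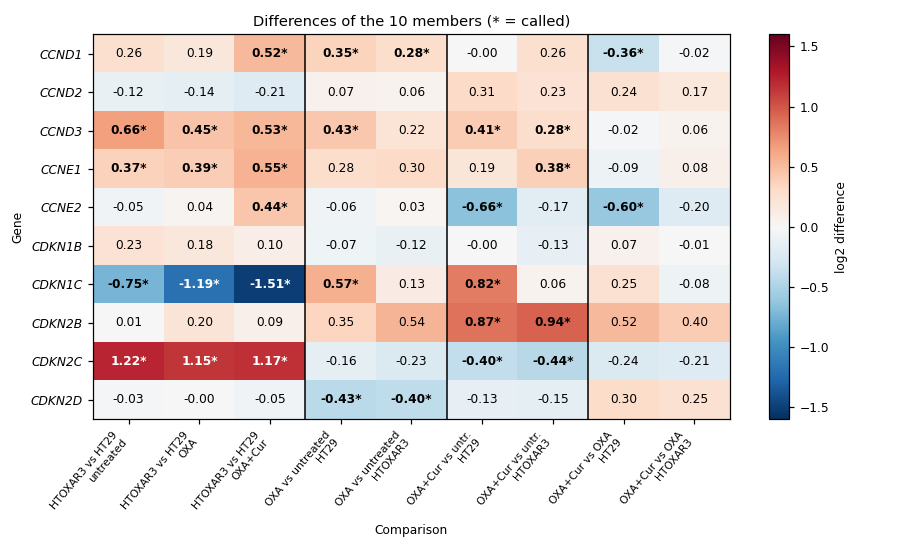
Log2 differences of the 10 genes (rows) in the 9 comparisons of 2 groups (columns), red for higher and blue for lower in the first-named group, with an asterisk at the 31 called differences. *CDKN2C* and *CDKN1C* carry the strongest colours in the 3 columns that compare the lines, with opposite signs.

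Whether the lines responded differently was tested directly, by subtracting the HT29 response from the HTOXAR3 response. By limma with BY adjustment 0 of the 10 genes were called for OXA (2 at an unadjusted p below 0.05 and 0 by BH), where 1.01% of all names were called (0.608% higher and 0.398% lower). For OXA plus Curcumin 0 were called (3 at an unadjusted p below 0.05 and 2 by BH, *CCNE2* and *CDKN1C*), where 0.856% of all names were called (0.32% higher and 0.536% lower). For the addition of Curcumin 0 were called (2 at an unadjusted p below 0.05 and 0 by BH), where 0.135% of all names were called (0.0276% higher and 0.108% lower). A response called in 1 line and not in the other, such as those of *CDKN1C*, *CCND1* and *CCNE2*, was therefore not shown by BY to differ between the lines.

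**Figure D4:**
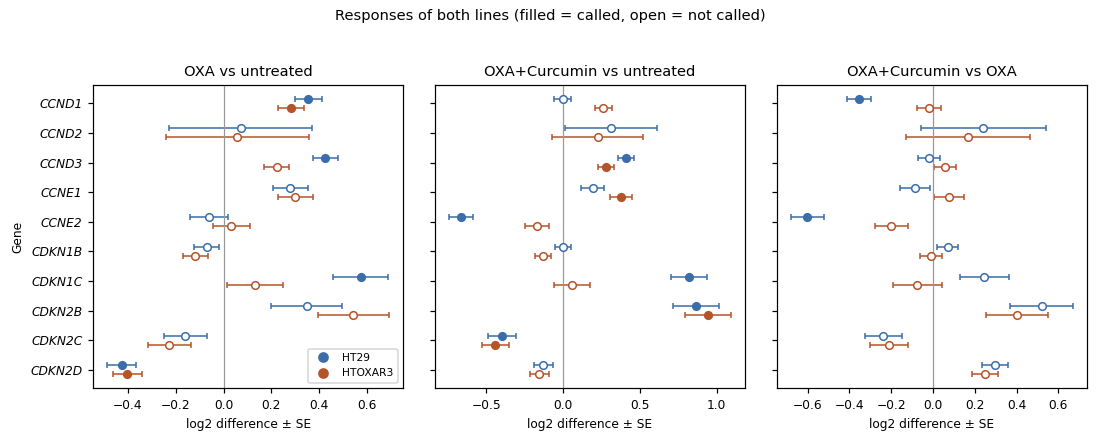
Log2 difference with its SE (bars) of the 10 genes for OXA against untreated, OXA plus Curcumin against untreated and OXA plus Curcumin against OXA, HT29 in blue and HTOXAR3 in orange, filled where called. *CDKN2D* and *CDKN2B* lie close together in both lines, and *CDKN1C* and *CCNE2* lie apart after OXA plus Curcumin.

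Over the 18 arrays, which share their 6 groups and 3 slides, *CCND3* and *CCNE1* had the most similar profiles of any 2 of the genes (Pearson r = 0.94), followed by *CCND1* and *CCNE1* (r = 0.90) and *CDKN1B* and *CDKN2C* (r = 0.89). *CDKN1C* and *CDKN2C* ran opposite (r = -0.92). Among 17406 gene names well above background on all arrays, the profile most like that of *CDKN2C* was *TMEM170B* (r = 0.99), and that most like *CDKN1C* was *VIL1*, the gene of the brush-border protein villin (r = 0.98). The nearest to *CCND1* was *PLCG1* (r = 0.97), to *CCND3* *LOXL4* (r = 0.99), to *CCNE1* *TCHP* (r = 0.97) and to *CCNE2* *USP1* (r = 0.92). *THSD1* was nearest to *CDKN1B* (r = 0.95), *DCUN1D3* to *CDKN2B* (r = 0.94) and *MMP15* to *CDKN2D* (r = 0.94). These values describe profiles over the same arrays.

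Of 3 other CDK inhibitor genes, *CDKN1A* gave the largest differences. *CDKN1A*, the gene of p21, averaged 5.24 ± 0.27 on the log2 scale (SD, n = 3) in untreated HT29, 5.28 ± 0.10 after OXA and 7.40 ± 0.15 after OXA plus Curcumin, and 5.74 ± 0.16, 6.63 ± 0.15 and 8.22 ± 0.13 in HTOXAR3. It rose with OXA plus Curcumin by 2.16 ± 0.14 in HT29 (adjusted p = 3.67e-07) and by 2.48 ± 0.14 in HTOXAR3 (adjusted p = 1.44e-07), and with OXA alone in HTOXAR3 by 0.88 ± 0.14 (adjusted p = 0.00352). The untreated HT29 arrays read only 4.95 to 5.47 for *CDKN1A*, and the size of its rises with another offset is not given here. *CDKN3*, a phosphatase that acts on CDK2, fell with OXA plus Curcumin by 0.61 ± 0.06 and 0.79 ± 0.06 on the log2 scale (adjusted p = 3.60e-05 and 3.59e-06) and was 0.62 ± 0.06 higher in untreated HTOXAR3 (adjusted p = 4.86e-05). *CDKN2A*, neighbour of *CDKN2B* and source of p16 and ARF, was lower in untreated HTOXAR3 by 0.33 ± 0.06 on the log2 scale (adjusted p = 0.0203).

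Among 21 E2F-driven genes of the G1/S transition and DNA replication, OXA plus Curcumin against untreated lowered 10 in HT29 and 9 in HTOXAR3, with a median of -0.32 and -0.22 against -0.03 and -0.01 over all names. Of all names, 9.02% and 8.64% were lower in these comparisons. Adding Curcumin to OXA lowered 11 of the 21 in HT29 and 10 in HTOXAR3, with medians of -0.38 and -0.30 (all names -0.02 in both, with 2.39% and 4.41% lower). The helicase subunit gene *MCM6* fell with OXA plus Curcumin by 1.07 ± 0.06 and 1.13 ± 0.06 on the log2 scale in HT29 and HTOXAR3 (adjusted p = 1.02e-07 and 8.99e-08). Much of this fall was present with OXA alone, at 0.79 ± 0.06 and 0.86 ± 0.06 (adjusted p = 2.38e-06 and 3.35e-06). *MYBL2*, a transcription factor of the S and G2 phases, fell with the addition of Curcumin by 0.70 ± 0.08 and 0.73 ± 0.08 (adjusted p = 0.000943 and 0.000415). With OXA alone 4 of the 21 rose and 3 fell in HT29, where 8.33% of all names rose and 7.62% fell, and *MYBL2* rose by 0.57 ± 0.08 (adjusted p = 0.00143). In HTOXAR3 2 of the 21 fell with OXA, *MCM6* among them, against 4.94% of all names.

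Of 19 pocket proteins, E2F factors and DREAM subunits, 4 were higher in untreated HTOXAR3 (6.26% of all names), among them *RB1*, the retinoblastoma gene (0.62 ± 0.06, adjusted p = 3.27e-05), and *E2F2* (0.51 ± 0.09, adjusted p = 0.00659). The atypical repressor *E2F7* fell with OXA by 0.97 ± 0.09 in HT29 and 0.53 ± 0.09 in HTOXAR3 (adjusted p = 3.23e-05 and 0.0125), and *TFDP2*, an E2F partner, rose when Curcumin was added by 0.69 ± 0.08 and 1.12 ± 0.08 (adjusted p = 0.000616 and 6.67e-06). Among 9 G1 kinases and their activators, the CDK-activating kinase genes *MNAT1* and *CDK7* were higher in untreated HTOXAR3 by 0.67 ± 0.09 and 0.41 ± 0.05 (adjusted p = 0.00125 and 0.000716). The difference of *CCNH*, the cyclin of the same kinase, was -0.26 ± 0.07 and was not called (adjusted p = 0.180), and *CCNH* fell with OXA in HT29 by 0.43 ± 0.07 on the log2 scale (adjusted p = 0.00310). Adding Curcumin in HT29 lowered 3 of the 9 (2.39% of all names), *CDK2* by 0.38 ± 0.07 (adjusted p = 0.0210) and *CDK4* by 0.39 ± 0.08 (adjusted p = 0.0494) among them. In HTOXAR3 the single call on this list for the addition was a rise of *CDK7* by 0.29 ± 0.05 (adjusted p = 0.0191), near the 8.83% of all names called (4.43% higher). *CDK2* and *CDK4* differed there by -0.28 ± 0.07 and -0.36 ± 0.08 without a call (adjusted p = 0.101 and 0.0524), and the tests of the difference between the lines gave 0.09 ± 0.10 and 0.02 ± 0.11 (adjusted p = 1 for both).

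Of 14 genes for the turnover of G1 cyclins and inhibitors, *SKP2*, whose protein directs p27 to degradation, fell with OXA in both lines (0.63 ± 0.08 and 0.46 ± 0.08 on the log2 scale, adjusted p = 0.000341 and 0.00896) and with OXA plus Curcumin against untreated (1.09 ± 0.08 and 0.86 ± 0.08, adjusted p = 1.52e-06 and 1.85e-05). *CKS1B*, the cofactor of SKP2 in the degradation of p27, rose with OXA by 0.57 ± 0.07 in HT29 and 0.40 ± 0.07 in HTOXAR3 (adjusted p = 0.000197 and 0.00827). With OXA alone 2 of the 14 rose and 1 fell in HT29 (8.33% and 7.62% of all names), and 3 rose and 1 fell in HTOXAR3 (5.31% and 4.94%). *FBXO4*, an F-box gene tied to cyclin D1 turnover, fell with OXA plus Curcumin by 0.97 ± 0.09 and 1.06 ± 0.09 (adjusted p = 1.82e-05 and 9.32e-06). *SKP1*, a shared subunit of these ligases, rose by 0.77 ± 0.07 and 0.70 ± 0.07 (adjusted p = 2.00e-05 and 5.91e-05). With OXA plus Curcumin against untreated, 4 of the 14 rose and 2 fell in HT29, where 9.56% of all names rose and 9.02% fell. In HTOXAR3 3 rose and 2 fell, where 8.82% of all names rose and 8.64% fell, so that the falls in both lines lay near the share of all names.

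Of 24 regulators of *CDKN1B*, *CDKN2B* and D-type cyclin transcription, 9 rose and 3 fell with OXA plus Curcumin in each line, where 9.56% and 8.82% of all names rose and 9.02% and 8.64% fell in HT29 and HTOXAR3. With OXA 7 rose in each line (8.33% and 5.31% of all names), and the single fall was called in HT29 (7.62% of all names). The falls of this list in these comparisons lay near or under the share of all names. Adding Curcumin to OXA lowered 2 of the 24 in each line (2.39% and 4.41% of all names), among them *NFKB1*, an NF-κB subunit gene, by 0.33 ± 0.06 and 0.43 ± 0.06 (adjusted p = 0.0166 and 0.00156). *KLF4*, a zinc-finger factor of differentiating epithelium, rose with OXA by 1.08 ± 0.17 and 1.18 ± 0.17 in HT29 and HTOXAR3 (adjusted p = 0.00260 and 0.00223). *ZBTB17*, whose protein MIZ1 binds the *CDKN2B* promoter, rose with OXA plus Curcumin by 0.90 ± 0.08 and 1.05 ± 0.08 (adjusted p = 5.59e-06 and 1.71e-06), while the receptor gene *TGFBR1* fell by 0.69 ± 0.08 and 0.48 ± 0.08 (adjusted p = 7.16e-05 and 0.00233). Both genes also changed with OXA alone in HT29. There *ZBTB17* rose by 0.80 ± 0.08 (adjusted p = 2.40e-05) and *TGFBR1* fell by 0.66 ± 0.08 (adjusted p = 0.000130). Their values for OXA alone in HTOXAR3 are not given here. In untreated HTOXAR3 5 of the 24 were lower (5.28% of all names), among them *FOXO1*, a forkhead factor that acts on *CDKN1B* (-1.13 ± 0.11, adjusted p = 2.96e-05), and *TGFBR2* (-0.82 ± 0.06, adjusted p = 2.53e-06). Over all 6 lists 0 of 90 genes were called for a difference in response between the lines by limma with BY, with 14, 17 and 11 at an unadjusted p below 0.05 and 2, 4 and 0 by BH for OXA, OXA plus Curcumin and the addition of Curcumin. Of all names 1.01%, 0.856% and 0.135% were called in these tests, so that a count of 0 of 90 lay near the share of all names.

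**Figure D5:**
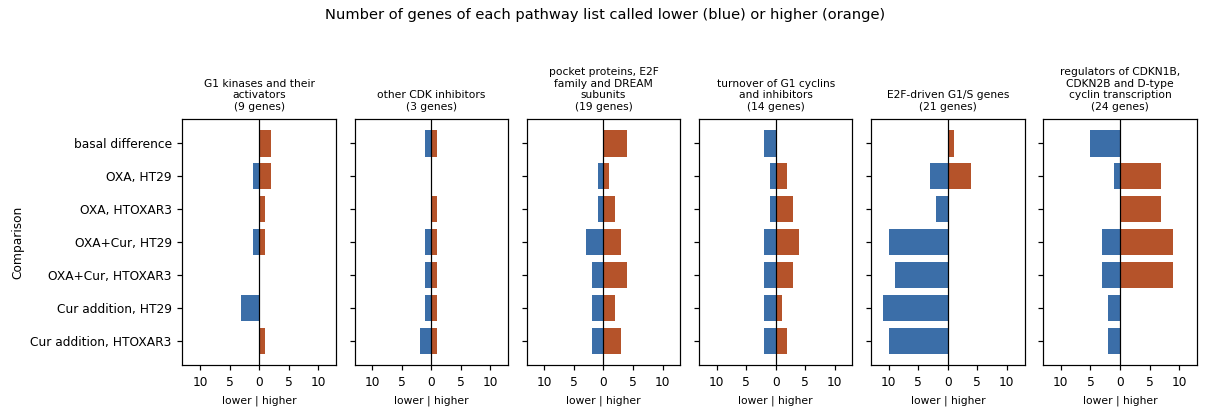
Number of genes called lower (blue, to the left) and higher (orange, to the right) in each of 6 pathway lists (panels) for 7 comparisons (rows). The E2F-driven genes were called lower for 9 to 11 of 21 genes wherever Curcumin was part of the comparison, where 9.02% and 8.64% of all names were lower against untreated and 2.39% and 4.41% for the addition, in HT29 and HTOXAR3.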

How the data were processed

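Total RNA of 18 cultures had been labelled with Cy3 and hybridised to one-colour Agilent human arrays of 62976 spots. For each array the authors deposited the scanner output, which holds the mean intensity of a spot, the median intensity of its local background and a processed intensity, none normalised between arrays. In addition, the authors deposited log2 values in a matrix, whose 36204 rows carry no gene name and were used for counts only. Probe positions are those of the array annotation on GRCh37, which gave no exon or UTR.

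Groups were taken from the sample labels. The mean intensity was background-corrected with normexp (offset 0), quantile-normalised and set to log2, after the methods of the study, in which no offset is named. Control spots and outlier flags were left out, spots of a probe were averaged, and each gene name was represented by its brightest probe on average. Linear models with 6 group terms were fitted to all 36204 names with limma 3.58.1 in R 4.3.3, and 12 contrasts were adjusted by BY over all names, called below 0.05 at a fold above 1.2. The fit was tested on simulated data, in which 200 genes were changed in untreated HTOXAR3 and the noise was independent between arrays. That test held no slide or replicate structure and does not bear on deviations that arrays share. Figures were drawn in Python with matplotlib 3.10.9.

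The 10 genes and all lists were chosen with earlier results of these data known. The genes named were the 10 genes, up to 2 largest called rises and falls of each list per comparison among genes well above background on all arrays compared, and the nearest profiles, from which the text gives a selection. Some genes of these lists are not reported here. Promoters came from a RefSeq table on GRCh38.p14. With 3 arrays a group, their number limits the precision.

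Same-numbered arrays deviated together in every pair (r above 0.1) in 2 comparisons, in which they shared slides. These were OXA against untreated in HT29 (0.117 to 0.242) and OXA plus Curcumin against OXA in HTOXAR3 (0.109 to 0.195). Elsewhere fewer pairs did so. There were 2 for OXA in HTOXAR3, 2 for the lines after OXA plus Curcumin and 1 for OXA plus Curcumin against untreated in HTOXAR3. In the remaining comparisons there were 0.

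The alternatives were offsets of 16 and 50, 2 scalings to the 75th percentile, averaging the probes of each gene, dim probes left out (those well above background on fewer than 3 arrays), BH, a fold above 1.5 and no fold minimum (the latter chosen after seeing the data), only the groups compared, slide or replicate as a block, the authors' matrix for counts of all names, and each array left out in turn.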

Additional observations from a re-analysis of the deposited data

How the results depend on the processing

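No called difference of the 10 genes changed sign under any alternative run. Of 2328 values under alternatives, 75 lost a call and 22 gained one, and 42 of the losses came from a fold minimum of 1.5 or from fitting only the groups compared, which leaves fewer arrays to estimate the spread. With only the groups compared, the genes called numbered 2 for the untreated lines, 0 for OXA in HT29, 0 for OXA in HTOXAR3, 1 for OXA plus Curcumin in HT29, 1 for it in HTOXAR3, 0 for the addition of Curcumin in HT29, 2 for the lines after OXA and 2 for the lines after OXA plus Curcumin. With a fold above 1.5 the same comparisons from OXA in HT29 onward gave 0, 0, 3, 1, 1, 2 and 2. With BH there were 4 for OXA in HTOXAR3, 4 for the addition of Curcumin in HT29 and 2 for the difference in response to OXA plus Curcumin.

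Leaving out 1 array at a time gave 3 to 4 genes for the untreated lines, 3 to 4 for OXA in HT29, 1 to 2 for OXA in HTOXAR3, 4 to 5 and 2 to 4 for OXA plus Curcumin in HT29 and HTOXAR3, 1 to 2 for the addition of Curcumin in HT29, 3 to 4 for the lines after OXA and 6 in each fit for the lines after OXA plus Curcumin. Of the 31 called differences 22 kept their call in every such fit. With the replicate block no call of the 10 genes changed (4 for the untreated lines, 4 for OXA in HT29, 0 for the addition of Curcumin in HTOXAR3).

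With the processed intensity scaled to the 75th percentile, the median of all names moved to -0.10 for OXA in HT29, -0.19 for OXA in HTOXAR3, -0.15 and -0.19 for OXA plus Curcumin and -0.14 between the lines after OXA. With normexp and this scaling it moved to -0.16 and -0.17 for OXA plus Curcumin, -0.14 for the addition of Curcumin in HTOXAR3 and 0.15 between the lines after OXA. Calls were higher for 37.4% of the names called for the difference in response to OXA plus Curcumin, and for 47.4% with that scaling. For that difference 310 names were called, against 658 with an offset of 50 and 565 from the authors' table, for the difference in effect of Curcumin 49 against 178 and 146, and for the difference in response to OXA 364 against 638 and 540. *CCND2* has no measured level, and with 3 arrays a group a difference not called may still be present.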
